A study of Mus musculus with 28 samples.

Results

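The effect of a lower Ctcf dosage was read from 7 single mouse blastocysts, 4 labelled het (embryos 3, 5, 6 and 8) and 3 labelled WT_flfl (embryos 1, 7 and 9). They were chosen by their sample titles, which share the prefix N89, and are 7 of the 14 blastocysts and 27 embryos with a column of values in the series. The series deals with the chromatin protein CTCF in mouse embryos between the morula and the blastocyst, the stage at which a fluid-filled cavity has formed. RNA with a poly(A) tail was sequenced from whole embryos of the outbred CD1 strain, 1 embryo per library. The labels give the genotype codes het, WT_flfl, M_KO and MZ_KO for blastocysts and het, del and MZKO for morulae. They do not spell out the alleles, so what each het embryo carries besides the code is not given. The other blastocysts, M_KO (n = 4) and MZ_KO (n = 3), carry the prefix C7 and all 14 blastocysts were labelled as 1 sequencing batch. The blastocysts are embryonic day 3.5 by the name of their table and the morulae day 2.5, no treatment is given, and nothing states which embryos share a mother, so p-values measure only the spread between these embryos. The prefix is shared by het and WT_flfl but not by the knockouts, so in any comparison across prefixes the genotype and the prefix cannot be told apart.

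CTCF is a zinc finger protein that binds a long DNA motif, halts loops extruded by cohesin and so sets borders between chromatin domains. It also binds near many promoters, and embryos that lack it entirely die around implantation. The mouse blastocyst holds an outer trophectoderm and an inner cell mass, which separates into epiblast and primitive endoderm. In RNA from whole embryos, fewer cells of a type and less RNA per cell cannot be told apart.

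The het embryos held 14039645 to 27883060 reads assigned to mouse genes and the WT_flfl embryos 20368499 to 22238384, with 13789 to 15268 genes detected per embryo. Levels are in CPM, counts per 1000000 reads, relative to the authors' scaled library size. Values of the 4 het embryos are given in the order 3, 5, 6, 8, and those of the 3 WT_flfl embryos in the order 1, 7, 9. Transcripts of Y-linked genes summed to 102 to 129 CPM in het 3, 5 and 6 and to 130 CPM in WT_flfl 9, against 1.97 to 2.40 CPM in het 8, WT_flfl 1 and WT_flfl 7. Both groups therefore held embryos with and without Y-linked RNA. The 14 blood markers, mainly adult globins, summed to 34654 CPM in WT_flfl 1, 31939 in het 6 and 11639 in het 3, against 61.7 to 1578 in the other 4 embryos. The 6 granulosa and cumulus markers in the table summed to 10.1 to 68.9 CPM in het and 20.4 to 35.7 CPM in WT_flfl. High blood values fell in both groups, and their part in the results below was not tested beyond the fits without WT_flfl 1 and het 6.

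Ctcf transcripts were lower in every het embryo than in every WT_flfl embryo. Ctcf (ENSMUSG00000005698) lies at chr8:105636568-105682922 of GRCm38, and the table gives 1 value for the whole gene. The het embryos held 78.9, 55.1, 67.7 and 68.5 CPM, and the WT_flfl embryos 91.7, 102 and 91.6 CPM. The het mean, 67.5 ± 9.73 CPM (SD, n = 4), was 71.0% of the WT_flfl mean of 95.1 ± 6.02 CPM (n = 3). The difference of -27.6 CPM had an exact two-sided permutation p of 0.0286, the smallest that 35 arrangements allow. On the log2 scale the difference was -0.50 with an exact permutation p of 0.0571, and relative to unscaled read totals it was -26.3 CPM with the same p. In the limma fit across all genes the log2 fold change was -0.50 (SE 0.23, 95% interval -0.98 to -0.02), which did not pass adjustment over all genes (adjusted p = 0.999). M_KO embryos held 69.5 ± 15.6 CPM (n = 4), 1.95 CPM above het (exact permutation p = 0.83). MZ_KO embryos held 3.62 ± 0.66 CPM (n = 3), below every het embryo (exact permutation p = 0.0286).

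The blastocyst table also lists LacZ, Neomycine and Puromycin, which name no mouse gene: the first is a bacterial reporter and the other names are those of antibiotics used for selection. Which construct or allele carries them is not given in the labels. LacZ stood at 36.1, 27.8, 23.3 and 24.8 CPM in the het embryos (375 to 703 reads each). In the WT_flfl embryos it stood at 0.0923, 1.54 and 0 CPM, or 2, 32 and 0 reads. All het embryos were above all WT_flfl embryos, by 27.5 CPM on average (exact permutation p = 0.0286). The mean of MZ_KO, 83.1 ± 32.9 CPM, was above that of het (exact permutation p = 0.0286), while M_KO at 25.7 ± 14.7 CPM differed from het by less than the spread between embryos (exact permutation p = 0.8).

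Neomycine went the other way. It stood at 4.80, 11.8, 8.33 and 11.8 CPM in het against 32.9, 19.8 and 23.9 CPM in WT_flfl, so the het mean was 35.8% of the WT_flfl mean (exact permutation p = 0.0286). Puromycin stood at 4.66, 5.17, 9.51 and 8.91 CPM in het against 28.9, 25.1 and 16.3 CPM in WT_flfl, a het mean of 30.1% (exact permutation p = 0.0286). Neither entry overlapped between the groups. In MZ_KO the Neomycine entry had 0 reads in all 3 embryos and Puromycin had 10 reads in all. The 3 entries therefore separated het from WT_flfl embryo by embryo, as Ctcf itself did.

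**Figure D1:**
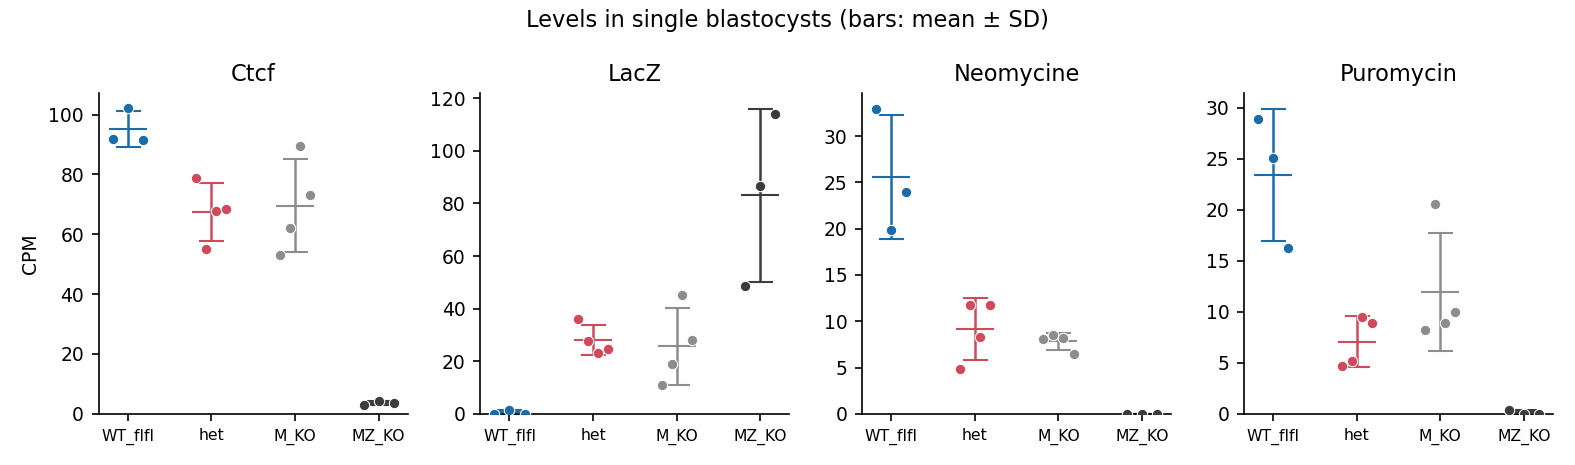
Level of Ctcf, LacZ, Neomycine and Puromycin in CPM (linear axes from 0) in single blastocysts of 4 groups; points are embryos, bars the mean ± SD. The het points lie below the WT_flfl points for Ctcf (means 67.5 and 95.1), Neomycine and Puromycin, and above them for LacZ.

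Across the transcriptome, no gene passed the test between het and WT_flfl. Of the 9585 genes that reached 10 CPM in 3 or more blastocysts, 0 (0.0%) had a limma adjusted p under 0.05, and the smallest adjusted p was 0.999. At an unadjusted p under 0.05 there were 187 genes (1.95%), 120 higher and 67 lower in het. All het embryos lay above all WT_flfl embryos for 202 genes (2.11%) and below them for 187 genes (1.95%), and Ctcf was 1 of the latter. Labels arranged at random would put 1 in 35 genes on each side, and both shares are smaller than that. By its limma p, Ctcf ranked 156 of the 9585 genes. Weighted log2 values of whole reads (limma's voom) also gave 0 calls, with 182 genes at an unadjusted p under 0.05.

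The fold changes were narrower than between the knockouts. The median absolute log2 fold change was 0.18 between het and WT_flfl, against 0.38 between MZ_KO and M_KO. A difference of at least 2-fold was seen for 280 genes (2.92%) between het and WT_flfl and for 1464 genes (15.3%) between MZ_KO and M_KO. The MZ_KO fit called 775 genes lower (8.09%) and 358 higher (3.74%) from 3 against 4 embryos. Of these 1133 calls in all, the fit without M_KO 1 gave 724 and that without MZ_KO 2 gave 711. The median of all genes was -0.01 between het and WT_flfl.

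**Figure D2:**
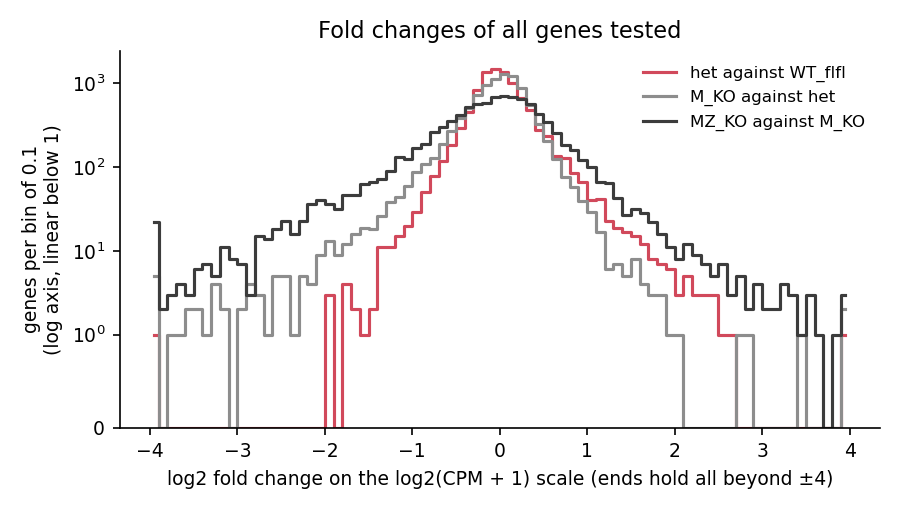
Number of genes per bin of 0.1 in log2 fold change (log count axis, linear below 1) for 3 comparisons of blastocysts over the same 9585 genes. The het against WT_flfl curve is narrower than that of MZ_KO against M_KO, with median absolute changes of 0.18 and 0.38.

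The precision of the fold changes differed between genes. The standard error of a log2 fold change had a median of 0.31, and 0.17 and 0.65 at the 10th and 90th percentiles. For 5723 genes (59.7%) the 95% interval of the het against WT_flfl change lay within 2-fold either way, and for 8796 (91.8%) within 4-fold. The share within 2-fold depended on level: 2.88% of genes with a mean under 10 CPM, 28.8% of those at 10 to 30 CPM, 77.3% at 30 to 100 CPM, 95.8% at 100 to 300 CPM and 97.5% above. Changes under 2-fold of genes with few reads were thus poorly fixed in these embryos. The intervals are not adjusted for the number of genes tested, so they do not give the size of change that would be called. Usp47, for example, changed by 1.24 on the log2 scale (SE 0.33) and did not pass.

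None of the genes with the smallest p between het and WT_flfl passed the threshold, and they are given as values. Usp47, which encodes a deubiquitinating enzyme, had the smallest (limma adjusted p = 0.999). It stood at 54.8, 53.9, 53.1 and 50.6 CPM in het and 19.2, 19.4 and 27.9 CPM in WT_flfl, a log2 difference of 1.24 (SE 0.33). The groups did not overlap, and the M_KO and MZ_KO means were 36.3 and 22.2 CPM. Fbxo7, an adaptor of a ubiquitin ligase, stood at 14.7, 13, 16.2 and 23.3 CPM against 6.74, 5.33 and 0.049 CPM. Eef2kmt, which methylates translation elongation factor 2, stood at 81.8, 51.9, 57.6 and 67.0 CPM against 30.6, 30.2 and 42.9 CPM. Rnf2, the catalytic ring finger protein of Polycomb complex 1, stood at 102, 145, 121 and 79.4 CPM against 76.7, 59.4 and 58.8 CPM. These 3 genes also did not overlap between groups, whereas Acsl5, which activates fatty acids, did, at 4.73 to 33.9 CPM against 0.0979 to 8.91 CPM.

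On the lower side, Kremen2, a receptor for Dickkopf proteins of the Wnt pathway, stood at 11.5, 9.45, 9.76 and 19.5 CPM in het and 29.5, 25.7 and 42.6 CPM in WT_flfl (log2 difference -1.33, SE 0.36). Tmem171, a membrane protein, stood at 5.98, 10.8, 4.72 and 5.25 CPM against 27.3, 20.1 and 14.1 CPM. Gm10163, a processed pseudogene whose reads may be shared with its parent, stood at 43.3 to 55.2 CPM against 67.9 to 81.95 CPM, and Mllt6, a chromatin protein, at 3.82 to 8.45 CPM against 8.63 to 24.7 CPM. In all 4 the groups did not overlap. AC117239.2 showed an on and off pattern, with 0, 0.222, 37.3 and 0.211 CPM in het against 38.3, 52.1 and 54.5 CPM in WT_flfl. One of the 4 M_KO embryos also stood at 0 CPM for it and the other 3 at 48.9 to 56.1 CPM, so embryos without its RNA were found under both prefixes.

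The likeness of embryos within a group and between groups overlapped. Across the 9585 genes, Pearson's r of log2(CPM + 1) is a description here, because genes are not independent replicates. It was 0.858 to 0.940 (median 0.911) over the 12 pairs of a het and a WT_flfl embryo. It was 0.867 to 0.924 over the 6 het pairs and 0.886 to 0.938 over the 3 WT_flfl pairs. For 6 of the 7 embryos the closest embryo belonged to the other group. This rests largely on WT_flfl 1, which was the closest to het 3, het 5, het 6 and WT_flfl 7. The 20 genes that varied most over the 7 embryos included the adult globin genes, Xist, the Y-linked Ddx3y and Eif2s3y, and AC117239.2. Adgre1, a macrophage marker, was there too, at 107 CPM in WT_flfl 1, 241 in het 6 and 0 in het 8 and WT_flfl 9. Gm28661, an unprocessed pseudogene at chr1:24614885-24615565, stood at 67.6 to 266 CPM in the het embryos and at 504, 0.0960 and 0.0979 CPM in WT_flfl. It was the single gene called when WT_flfl 1 was left out (log2 fold change 7.03, limma adjusted p = 0.0412), and reads of a pseudogene may be shared with its parent sequence.

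The genes that differed between MZ_KO and M_KO were followed in het and WT_flfl, to ask whether a lower Ctcf dosage gave part of the same change. The 775 genes lower and 358 higher in MZ_KO than in M_KO come from embryos that do not enter het against WT_flfl. For the 775 genes the median log2 fold change was -1.34 in MZ_KO against M_KO and -0.01 in het against WT_flfl, beside -0.01 for all genes tested. In het, 407 of them were lower and 368 higher, 24 (Ctcf among them) lay below all WT_flfl embryos and 18 above, which together is 5.42% of the list, beside 4.06% of all genes tested (1.95% below and 2.11% above). The 95% interval of the het change left out the full MZ_KO change for 751 of the 775 genes (96.9%), and left out 50% of that log2 change for 408 (52.6%). For the 226 genes that fell at least 4-fold, with a median of -2.57, the het median was 0.02 and the interval left out the full change for 225 (99.6%). A called gene lies several SE from 0 in MZ_KO by its choice, and the fit gives both changes the same SE, so an interval around a het value near 0 leaves out the full change of most such genes by construction.

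Per embryo, the median of the 775 genes relative to the WT_flfl mean was -0.12, 0.01, 0.06 and 0.02 in the het embryos and -0.02, 0.04 and -0.01 in the WT_flfl embryos on the log2 scale. It was -1.33, -1.38 and -1.25 in the MZ_KO embryos and -0.04 to 0.06 in the M_KO embryos. Het 3 was the lowest and het 6 the highest of the 7 embryos, and all 7 lay more than 1 log2 unit above every MZ_KO embryo. For the 358 genes higher in MZ_KO, with a median rise of 0.96, the het median was -0.05. The per-embryo medians of these ran from -0.16 (het 6) to 0.03 (het 8) in het and from -0.02 to 0.04 in WT_flfl, against 0.86 to 0.97 in MZ_KO. Both lists were chosen by the change in these same MZ_KO embryos. Their MZ_KO medians therefore lie far from 0 by choice, and the gap to the other embryos is not separate evidence.

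The 2 changes also differed by a direct test. The MZ_KO against M_KO change minus the het against WT_flfl change passed for 202 genes on the lower side (2.11%) and 64 on the higher side (0.668%). Of these, 198 were among the 775 genes and 62 among the 358. Because those lists were chosen by the MZ_KO change, which is part of the difference, these counts are not separate evidence. In all 266 genes passed, and single embryos moved this count: 165 without M_KO 1 or M_KO 4, 160 without het 6, 145 without WT_flfl 1, 168 without WT_flfl 7, and 99 without WT_flfl 1 and het 6 together.

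**Figure D3:**
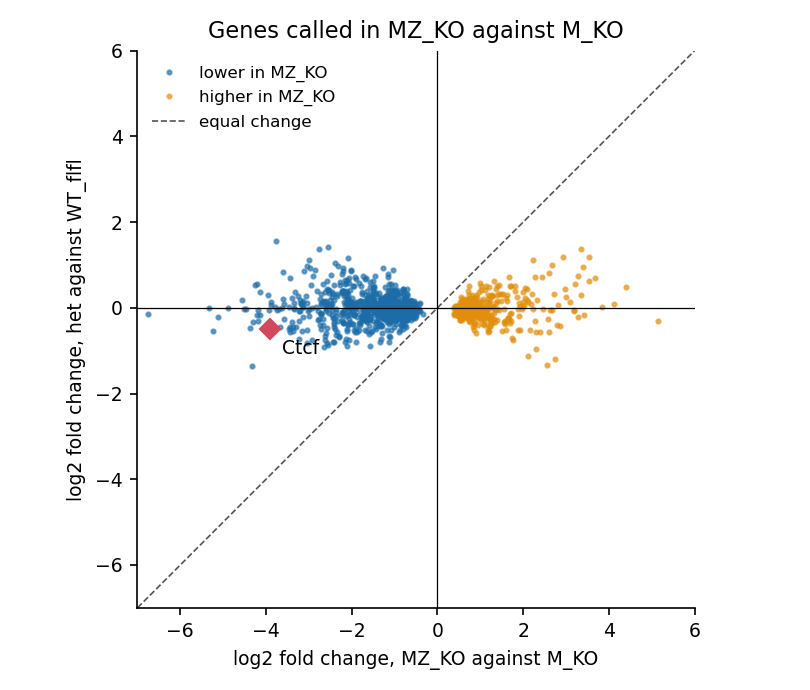
Log2 fold change in het against WT_flfl (vertical) plotted against that in MZ_KO against M_KO (horizontal) for the 1133 genes called in the latter; each point is a gene and the dashed line marks equal change. Points lie around 0 on the vertical axis (medians -0.01 and -0.05), and Ctcf, the diamond, lies at -0.50.

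Like all but 4.06% of the genes tested, the 10 genes with the largest falls in MZ_KO overlapped between het and WT_flfl. Their promoters are shown for 4 of them, which are among the largest falls in MZ_KO. RefSeq promoters of GRCm38.p6 (250 bases before to 50 after the start) were held for 9 of the 10 genes. They were searched on both strands for CNAGGNGGC, a part of the known CTCF motif, and, after these sequences had been read, for the shorter AGNGGGCG. The first was found in 1 of the 9 genes and the second in 6. The 4 promoters shown are those of the largest falls that hold the second, so that all 4 hold it follows from the choice. A promoter of Sh3bp5 and that of B3glct also hold it and are not shown, and none was held for Ankrd46. Those of Enpep, Ttc5 and BC051665 hold no match to either and are not shown. In the sequences below, capitals mark AGNGGGCG; Adprhl2 is at chr4:126321654-126321953 (minus strand), Gfm1 at chr3:67429865-67430164 (plus), AA467197 at chr2:122637637-122637936 (plus) and Ext2 at chr2:93822519-93822818 (minus).
Adprhl2: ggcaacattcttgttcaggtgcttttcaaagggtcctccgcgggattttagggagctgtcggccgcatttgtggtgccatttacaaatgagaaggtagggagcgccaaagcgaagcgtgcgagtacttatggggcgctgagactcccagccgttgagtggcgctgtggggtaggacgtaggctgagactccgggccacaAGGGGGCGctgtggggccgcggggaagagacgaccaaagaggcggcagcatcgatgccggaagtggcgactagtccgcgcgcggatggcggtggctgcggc
Gfm1: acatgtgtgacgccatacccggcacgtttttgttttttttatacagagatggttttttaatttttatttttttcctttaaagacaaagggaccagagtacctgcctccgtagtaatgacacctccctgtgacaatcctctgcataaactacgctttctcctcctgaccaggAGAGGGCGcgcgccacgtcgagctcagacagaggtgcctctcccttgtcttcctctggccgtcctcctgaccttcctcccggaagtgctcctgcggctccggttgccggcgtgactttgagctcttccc
AA467197: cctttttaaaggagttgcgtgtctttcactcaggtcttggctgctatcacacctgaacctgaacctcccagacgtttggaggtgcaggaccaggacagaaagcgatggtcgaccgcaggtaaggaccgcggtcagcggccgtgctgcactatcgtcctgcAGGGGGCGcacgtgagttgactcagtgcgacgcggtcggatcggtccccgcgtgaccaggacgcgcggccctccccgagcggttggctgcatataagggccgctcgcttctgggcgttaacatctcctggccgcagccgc
Ext2: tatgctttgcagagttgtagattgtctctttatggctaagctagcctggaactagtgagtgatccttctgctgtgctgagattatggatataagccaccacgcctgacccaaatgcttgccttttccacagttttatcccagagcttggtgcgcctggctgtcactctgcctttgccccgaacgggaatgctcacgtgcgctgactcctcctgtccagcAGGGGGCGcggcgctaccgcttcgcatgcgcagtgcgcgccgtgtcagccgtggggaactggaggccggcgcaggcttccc

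The letters AGNGGGCG stood in 12.2% of all 32851 promoters in the table and in 22.4% of the promoters of the genes tested. They stood in 29.2% of the promoters of genes lower in MZ_KO and in 22% of those of genes higher. CNAGGNGGC stood in 8.38% of all promoters, in 12.8% of those of genes tested, and in 13% and 12.8% of those of genes lower and higher in MZ_KO. A match describes letters in this window and is not a measured binding site. The second motif was picked after the promoters of the largest falls had been read, so its share in the list is no test.

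Adprhl2, which removes ADP-ribose from serines after DNA damage, had the largest fall in MZ_KO. It stood at 110, 115, 81.6 and 136 CPM in het and 101, 106 and 162 CPM in WT_flfl, while MZ_KO averaged 0.0139 CPM and M_KO 108 CPM. The het difference of -0.14 (SE 0.23) stood beside a MZ_KO change of -6.75 (limma adjusted p = 1.06e-11). The difference between the 2 changes was -6.61 (limma adjusted p = 4.0e-09). It is mostly the MZ_KO change by which the gene was chosen, so it is not separate evidence. The 95% interval of the het difference, -0.63 to 0.35, left out a 2-fold change either way.

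Gfm1, the mitochondrial translation elongation factor G1, stood at 173, 188, 156 and 145 CPM in het and 150, 195 and 156 CPM in WT_flfl, with a MZ_KO mean of 5.82 CPM. Ttc5, a cofactor of p300 and of tubulin mRNA decay, stood at 62.3, 52.4, 69.2 and 75.2 CPM against 67.5, 57.1 and 67.7 CPM, with a MZ_KO mean of 1.46 CPM. Ext2, a polymerase of heparan sulfate chains, stood at 58.0, 55.2, 56.3 and 65.1 CPM against 37.2, 48.7 and 75.2 CPM, with a MZ_KO mean of 0.528 CPM. In these 3 genes the het and WT_flfl embryos overlapped and the log2 differences were -0.01, 0.01 and 0.18.

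Enpep, glutamyl aminopeptidase, stood at 128 CPM in het 3 and 287 to 366 CPM in the other het embryos, against 245 to 336 CPM in WT_flfl and a MZ_KO mean of 3.69 CPM. Ankrd46, an ankyrin repeat protein, stood at 13.7 to 29.9 CPM against 19.98 to 26.7 CPM, with a MZ_KO mean of 0.0972 CPM. B3glct, which adds glucose to O-linked fucose, stood at 29.1, 20.1, 15.8 and 10 CPM against 20.5, 29.4 and 24.3 CPM. AA467197 spanned 31.1 to 174 CPM in het and 59.4 to 171 CPM in WT_flfl. Sh3bp5, an SH3-binding protein that also binds the kinase JNK, spanned 29.6 to 161 CPM against 37.5 to 91.6 CPM, and BC051665 spanned 0 to 91.4 CPM against 19.5 to 122 CPM. The last 3 varied several-fold within each group, so their het differences of -0.53 (SE 0.73), -0.02 (SE 0.55) and -1.36 (SE 1.32) were loosely fixed.

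**Figure D4:**
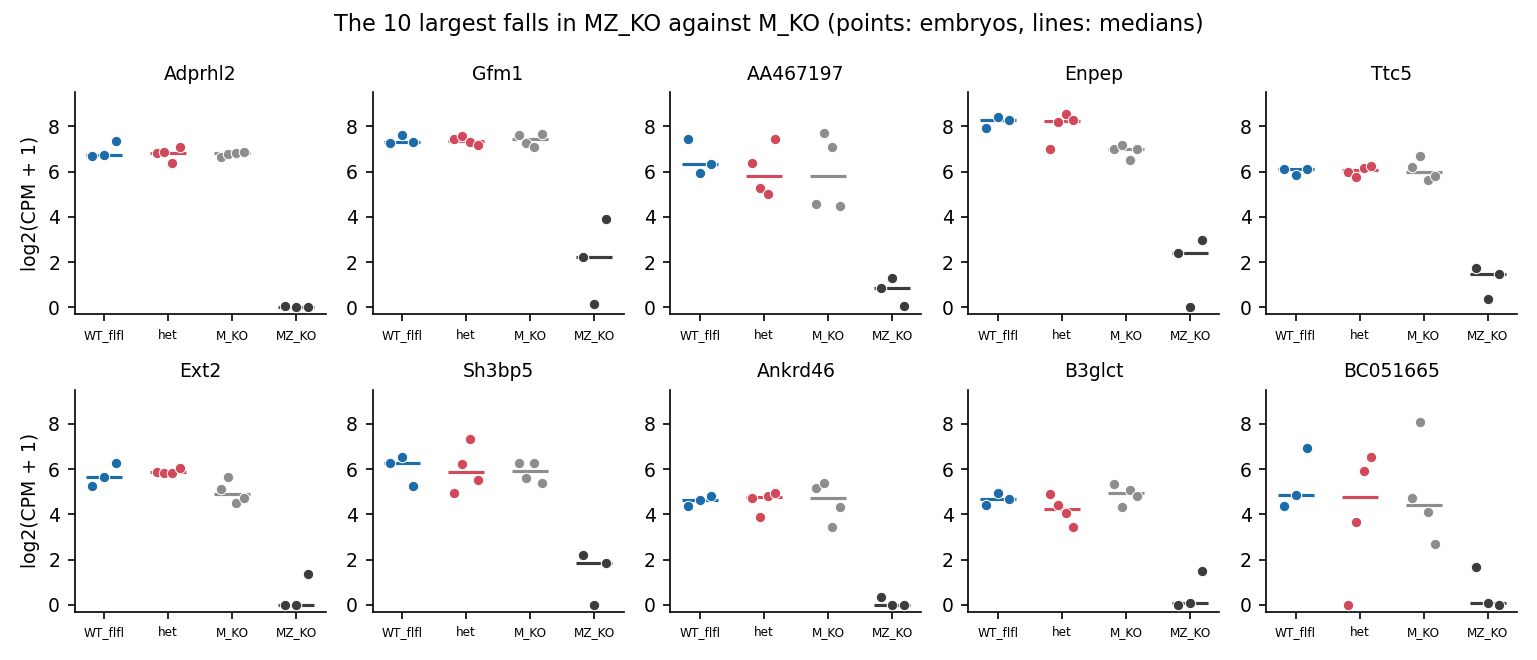
Log2(CPM + 1) of the 10 genes with the largest falls in MZ_KO against M_KO, in single blastocysts of 4 groups; points are embryos and lines are medians. In each panel het and WT_flfl points overlap, as for Ttc5 at 52.4 to 75.2 and 57.1 to 67.7 CPM. Of all genes tested 4.06% did not overlap. The MZ_KO medians are the lowest of the 4 groups, which follows from choosing the genes by their fall in MZ_KO.

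The 5 genes with the largest rises in MZ_KO were near 0 in both N89 groups. Rasl11a, a small GTPase, stood at 0.106 to 1.49 CPM in het and 0 to 4.85 CPM in WT_flfl, against a MZ_KO mean of 71.0 CPM. Gdpd1, a phosphodiesterase of lysophospholipids, stood at 1.37 to 3.82 CPM against 0.588 to 3.78 CPM, with a MZ_KO mean of 61.0 CPM. Hand1, a transcription factor of trophoblast giant cells, stood at 0.834 to 3.87 CPM against 0 to 4.94 CPM, with a MZ_KO mean of 44.5 CPM. Gm37933 stood at up to 0.0622 CPM and Slc10a6, a carrier of sulphated steroids, at up to 4.52 CPM in the 7 embryos, with MZ_KO means of 13.3 and 21.3 CPM. None of the 5 was high in a het embryo. They reached 10 CPM in 3 embryos only through MZ_KO, and a ranking by log2 rise favours genes near 0 elsewhere. Their low values in the 7 embryos are therefore largely fixed by the choice and are not separate evidence.

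Within the MZ_KO lists, 24 genes of the lower list and 12 of the higher list had het embryos wholly apart from WT_flfl on the same side as in MZ_KO, and 18 and 7 on the opposite side. Those named here were singled out after their values were seen, and none passed the test. Wnt3a, a Wnt ligand, stood at 35.6, 46.8, 77.6 and 70.8 CPM in het and 111, 88.5 and 89.9 CPM in WT_flfl (log2 difference -0.79, SE 0.34; -2.43 in MZ_KO). Acat1, which cleaves acetoacetyl-CoA in mitochondria, stood at 30.7, 54.7, 64.2 and 54.1 CPM against 88.0, 78.1 and 91.9 CPM (-0.79, SE 0.27; -1.33 in MZ_KO). Slc6a8, the creatine transporter, stood at 107, 238, 199 and 240 CPM against 328, 371 and 284 CPM (-0.80, SE 0.30; -1.13 in MZ_KO).

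On the higher side, Ccn2, a matrix protein induced by YAP, stood at 12.7, 20.8, 14.4 and 16.97 CPM in het and 6.97, 7.97 and 7.49 CPM in WT_flfl (log2 difference 1.00, SE 0.41; 2.67 in MZ_KO). Tmem229b stood at 16.3, 8.34, 4.10 and 8.49 CPM against 2.35, 1.87 and 3.87 CPM (1.38, SE 0.71; 3.34 in MZ_KO). Other genes of the lists lay apart on the opposite side. Hif1a, the oxygen-regulated transcription factor, stood at 46.8, 37.5, 55.9 and 35.9 CPM in het and 26.0, 26.1 and 18.4 CPM in WT_flfl, although it fell by 2.03 on the log2 scale in MZ_KO. Mib2, a ubiquitin ligase of the Notch pathway, stood at 51.2 to 56.9 CPM against 26.9 to 29.7 CPM and fell by 1.04 in MZ_KO. Of the 358 genes of the higher list, 12 lay above and 7 below all WT_flfl embryos, 5.31% together, beside the 4.06% of all genes tested.

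The 12 lineage genes overlapped between het and WT_flfl, as did all but 4.06% of the genes tested. For the trophectoderm, Cdx2, its master transcription factor, stood at 198, 259, 246 and 233 CPM in het and 311, 295 and 147 CPM in WT_flfl (log2 difference -0.03, SE 0.26). Gata3 stood at 294 to 511 CPM against 331 to 480 CPM. Eomes, a regulator of trophoblast stem cells, stood at 96.5, 315, 319 and 148 CPM against 186, 219 and 80.5 CPM (0.39, SE 0.40). It fell by 2.24 in MZ_KO, and the difference between these 2 changes passed (limma adjusted p = 0.0191). Tfap2c stood at 85.7 to 161 CPM against 130 to 244 CPM (-0.48, SE 0.25).

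For the epiblast, Nanog stood at 133, 93.4, 167 and 140 CPM in het and 155, 164 and 136 CPM in WT_flfl, and Pou5f1, which encodes OCT4, at 238 to 356 CPM against 299 to 417 CPM. Klf4 stood at 12.4 to 18.03 CPM against 14.8 to 23.3 CPM, and Sox2, which was too low to be tested, at 6.72 to 8.52 CPM against 2.497 to 8.93 CPM. Dppa3, which protects maternal methylation, stood at 1666, 1445, 1122 and 1476 CPM in het and 1867, 1656 and 1853 CPM in WT_flfl. Its log2 difference of -0.34 (SE 0.14) did not pass, whereas it rose by 1.26 in MZ_KO, and the 2 changes differed by 1.61 (limma adjusted p = 2.29e-04).

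For the primitive endoderm, Gata6 stood at 90.8 to 235 CPM in het and 105 to 174 CPM in WT_flfl, and Pdgfra, its early receptor, at 65.5, 43.7, 72.7 and 91.2 CPM against 37.0, 53.2 and 33.8 CPM (log2 difference 0.69, SE 0.31). The later markers Gata4 and Sox17 varied between embryos of 1 group, at 7.85 to 73.9 and 15.8 to 127 CPM in het and 10.2 to 38.4 and 27.0 to 43.7 CPM in WT_flfl. Lamc1, a laminin chain of basement membrane, stood at 86.2, 78.8, 113 and 157 CPM against 45.1, 80.0 and 62.2 CPM (0.78, SE 0.34). By whole lists, 0 of 26 trophectoderm, 0 of 20 epiblast and 0 of 17 primitive endoderm genes passed. The median log2 fold changes were -0.14, -0.05 and 0.04, beside -0.01 for all genes. In none of the 3 lists did a gene have het embryos wholly apart from WT_flfl. Among all genes tested 4.06% did, so few would be found in lists of this size.

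**Figure D5:**
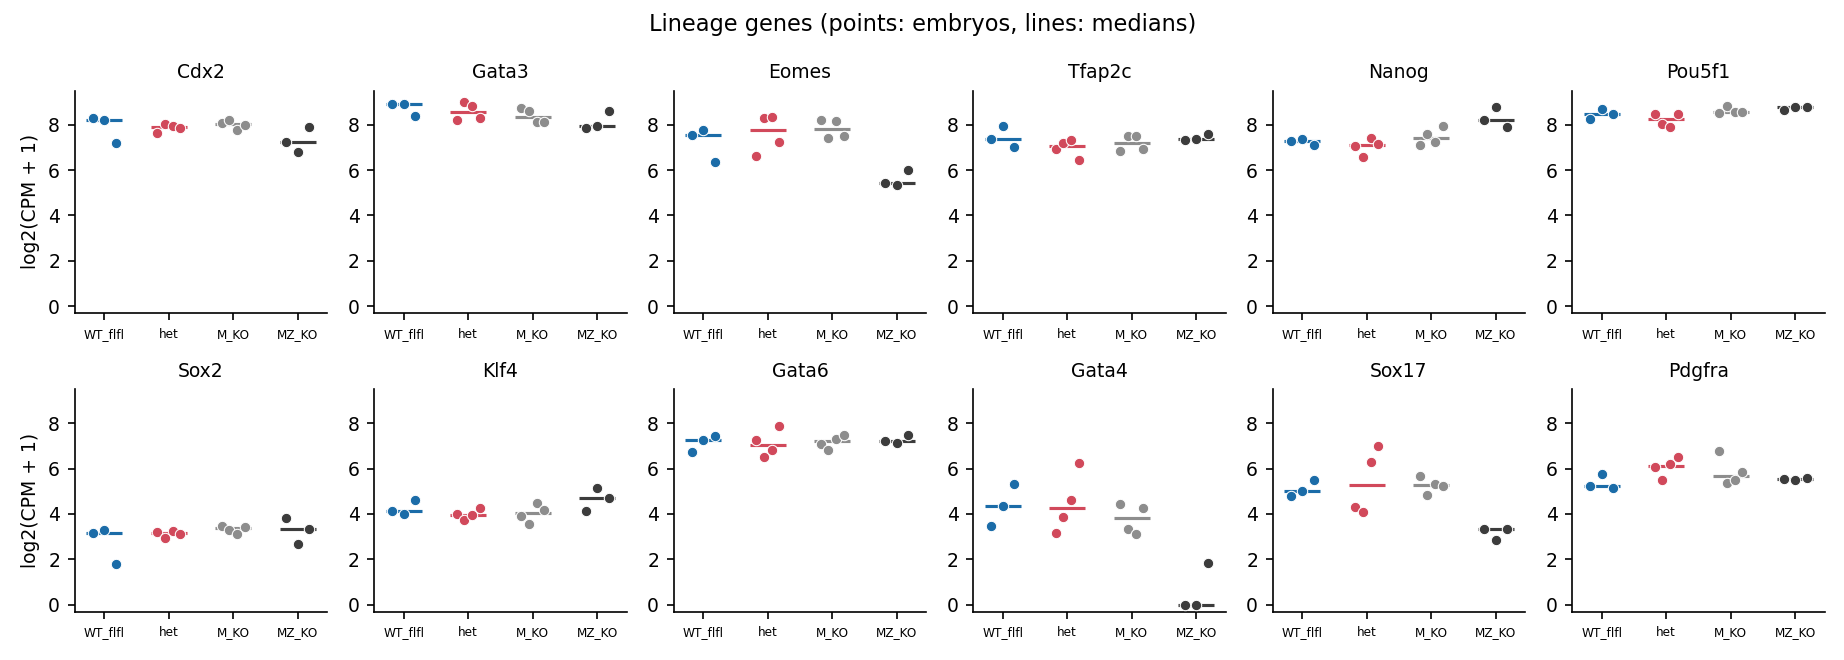
Log2(CPM + 1) of 12 lineage genes in single blastocysts of 4 groups; points are embryos and lines are medians. Het and WT_flfl points overlap in every panel, as for Cdx2 at 198 to 259 and 147 to 311 CPM. Of all genes tested 4.06% did not overlap.

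No gene of the metabolic groups passed the test. All 77 nuclear genes of oxidative phosphorylation were tested, 68 were lower in het and 9 higher, with a median of -0.14, and 0 passed. The interval of each of the 77 lay within 2-fold. Ndufb6, a subunit of complex I, stood at 101 to 143 CPM in het and 136 to 193 CPM in WT_flfl (-0.39, SE 0.19). The summed level of the list was 18123, 23285, 20022 and 21786 CPM in het and 21990, 22597 and 23387 CPM in WT_flfl, which overlap. The 15 mitochondrially encoded transcripts summed to 12016 to 16557 CPM in het and 12021 to 17987 CPM in WT_flfl.

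Glycolysis had 14 tested genes, pyruvate metabolism and the citrate cycle 26, and fatty acid oxidation 25, with medians of 0.09, -0.09 and 0.01 and 0 passing. Ldha, lactate dehydrogenase A, stood at 38.6, 31.2, 110 and 58.3 CPM in het and 44.6, 4.75 and 20.8 CPM in WT_flfl (log2 difference 1.59, SE 0.74). Idh1, the cytosolic isocitrate dehydrogenase, stood at 377 to 457 CPM against 276 to 421 CPM (0.32, SE 0.19). It fell by 1.46 in MZ_KO, and the 2 changes differed (-1.78, limma adjusted p = 0.00119). Cholesterol synthesis had 23 tested genes with a median of -0.15, and its summed level was 2501 CPM in het 8 against 968 to 1225 CPM in the other het embryos and 1213 to 1809 CPM in WT_flfl. Of 11 nutrient transporters 0 passed.

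Cytosolic ribosomal proteins were lower by a small step in 76 of 80 genes, with a median of -0.14. Their summed level was 27481, 28218, 25667 and 33426 CPM in het and 30552, 30855 and 32709 CPM in WT_flfl, so het 8 lay above all WT_flfl embryos and the other het embryos below. Rps10 stood at 178, 203, 190 and 251 CPM against 256, 257 and 272 CPM (-0.36, SE 0.13). Mitosis genes went the other way, with 38 of 44 higher in het and a median of 0.16. Their sum was 7961 to 8970 CPM in het and 6688, 7154 and 8108 CPM in WT_flfl, overlapping through WT_flfl 9.

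Cdc20, the activator of the anaphase-promoting complex, stood at 759, 644, 614 and 861 CPM in het and 528, 507 and 556 CPM in WT_flfl (0.43, SE 0.13). Nusap1, a spindle protein, stood at 68.3, 67.7, 101 and 71.4 CPM against 38.8, 40.2 and 52.9 CPM (0.79, SE 0.30). These were the 2 mitosis genes whose groups did not overlap, 4.55% of the list beside 4.06% of all genes tested, and neither passed over all genes. Of 50 DNA replication genes 35 were lower, with a median of -0.09. Genes of 1 list share embryos and libraries, so how many lie on a side is a description and no test. Among 21 p53 targets 0 passed, and Cdkn1a, the p21 inhibitor, stood at 7.65, 18.4, 7.02 and 72.5 CPM against 43.3, 18.8 and 74.5 CPM, although it rose by 2.74 in MZ_KO. Of 44 genes of cavitation and cell junctions, 25 stress response genes and 16 immediate early and heat shock genes 0 passed, with medians of -0.01, 0.03 and 0.02. Hsp90aa1, a chaperone, stood at 3301 to 4159 CPM in het and 4228 to 5778 CPM in WT_flfl (-0.37, SE 0.14).

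No partner of CTCF passed the test. Of 26 tested genes of cohesin, its loaders and CTCF-associated proteins, Ctcf included, 0 passed, 13 were higher and 13 lower, and the median was 0.00. Wapl, which releases cohesin from DNA, had the smallest p after Ctcf, at 165, 118, 144 and 134 CPM in het and 97.2, 106 and 128 CPM in WT_flfl (0.34, SE 0.17). Of 21 imprinted genes, a class in which CTCF sites at some loci guide the choice of the parental allele, 0 passed. Mest, which is expressed from the paternal allele, stood at 39.8, 14.9, 20.4 and 27.6 CPM against 13.4, 9.65 and 8.96 CPM (1.12, SE 0.43). Igf2r stood at 35.4 to 58.3 CPM against 53.02 to 67.8 CPM. Of the 58 clustered protocadherins, whose promoter choice is known to need CTCF in neurons, 1 was in the table and 0 were tested.

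The genes next to Ctcf lay on both sides. Of 27 tested genes that start within 500 kb of the Ctcf start, 13 were higher and 14 lower in het, with a median of -0.08. Agrp, whose start is 0.8 kb away, stood at 8.48, 6.06, 5.28 and 14.05 CPM in het and 32.7, 15.7 and 11.8 CPM in WT_flfl (log2 difference -1.11, SE 0.45). Its groups overlapped, and counting without strand could not separate reads of close neighbours. Ranbp10 was the 1 neighbour whose groups did not overlap, at 39.0 to 53.8 CPM against 16.3 to 36.0 CPM (0.78, SE 0.41), where 4.06% of all genes tested did not overlap. By chromosome, the median log2 fold change ran from -0.05 (chromosome 7) to 0.04 (chromosome 18) over the autosomes. On the X chromosome it was -0.12, beside 3 of 4 het and 1 of 3 WT_flfl embryos with Y-linked RNA.

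Genes that changed in morulae were followed in the same way. Morula del 6 held 1635553 reads assigned to mouse genes, against 12136606 to 20414013 in the other morulae. In the morula table, limma called 7 genes lower (0.0703%) and 41 higher (0.412%) in MZKO than in morula het. Of these, 4 and 26 were tested in blastocysts, with median het against WT_flfl changes of -0.12 and -0.06, and 0 passed. The 1 gene lower in morula del than in morula het was Adprhl2 (limma adjusted p = 0.0318), whose blastocyst values are given above.

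M_KO and het blastocysts, with mean Ctcf levels of 69.5 and 67.5 CPM, were compared directly across their prefixes. Of the 9585 genes 0 (0.0%) passed in limma, with a smallest adjusted p of 0.564 and 638 genes at an unadjusted p under 0.05. The median absolute log2 difference was 0.21. Enpep, for example, averaged 121 CPM in M_KO and stood at 128 to 366 CPM in the het embryos. This comparison shares the het embryos with that against WT_flfl, so the 2 sets of values are given side by side only.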

How the data were processed

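RNA of single CD1 embryos was copied into DNA by the SMART-Seq method for low input, per the labels' protocols, and sequenced on an Illumina HiSeq. The submitters' processing notes name cutadapt 1.14, the aligner Bowtie2 2.2.9, RSEM 1.3.1 and the build GRCm38, with no order. The authors deposited log2 values, which behaved as log2 counts per 1000000 reads of a scaled library with 0.5 reads added, and removing that offset gave whole reads for 100% of values within 0.01 reads. The kit does not mark strand, and RSEM can split reads between near-identical copies. Of 15582 mouse genes in the blastocyst table, 15575 matched GENCODE M21, and 0 columns belonged to other samples. The repeat library of het 3 was not analysed here.

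Tests were run with limma 3.58.1 in R 4.3.3 on log2(CPM + 1), a scale that understates changes of low genes, with all 14 blastocysts in 1 fit, a trended moderated variance and no covariate. A gene was tested if 3 or more embryos reached 10 CPM, p was two-sided and adjusted by Benjamini-Hochberg over them, and an adjusted p under 0.05 was called. Linear values had been assumed in the design, so the scale was rebuilt as above. Single levels were compared by exact permutation tests over embryos. Embryo pairs of a group differed beyond counting error (chi-square per degree of freedom at least 81.1). Figures were drawn with matplotlib 3.10.9.

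Genes were named by rule: Ctcf and the 3 other entries, the 5 smallest p on each side where fewer were called, the 2 smallest p of each list, the 10 largest falls and 5 largest rises in MZ_KO, neighbours of Ctcf, lineage genes and checks. Not every gene the rule names is printed. The embryos and gene lists were chosen with earlier results of these data known. Alternatives were other pseudocounts, filters, scalings, variance priors and sets of embryos, a Y-linked covariate and voom.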

Additional observations from a re-analysis of the deposited data

Results flagged for a closer look

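Among 123 sets of het values examined for 1 embryo far from the other 3 (gap over range above Dixon's 95% critical value), 12 stood out, where chance gives about 1 in 20. In het 6, AC117239.2 stood at 37.3 CPM (0 to 0.222 in the others), Krt19, a keratin of epithelia, at 74.4 (5.11 to 11.8), Nusap1 at 101 (67.7 to 71.4), Cbfb at 35.1 (18.6 to 20.9) and Tppp3 at 55.3 (10.7 to 15.7). In het 8, Fdps, of cholesterol synthesis, stood at 432 CPM (105 to 143), Ccng1, a p53 target, at 128 (44.8 to 53.8), Rps4x at 655 (376 to 409), Xist at 95.2 (1.44 to 4.48) and Uty at 1.16 (21.1 to 23.01). Het 5 had mt-Nd6 at 102 CPM (78.2 to 82.0), and het 3 had Echs1 at 80.9 (106 to 109). Xist, Uty and the X-linked Rps4x moved with the absence of Y-linked RNA in het 8.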

How the results depend on the processing

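No paired analysis was possible because the het numbers 3, 5, 6 and 8 and the WT_flfl numbers 1, 7 and 9 share none. The planned count-model tests were not run. The deposited values are log2, and voom on the whole reads recovered from them took their place, chosen after seeing the data. The count of genes called between het and WT_flfl was 0 in all alternatives but without WT_flfl 1 (leave-one-out range 0 to 1) and without WT_flfl 1 and het 6 in a fit of only het and WT_flfl (1); Gm28661 was the gene in both. M_KO against het gave 1 (Pard6g) with a constant prior variance. MZ_KO against M_KO, 1133 in all, gave 711 to 1104 with 1 embryo left out. The difference of the 2 changes, 266 in all, gave 167 with a constant prior variance, 138 with voom, 99 without WT_flfl 1 and het 6, and 145 to 311 with 1 embryo left out. The Ctcf difference was -26.3 CPM on unscaled totals and -0.50 on the log2 scale (exact permutation p = 0.0571 each), -29.3 CPM without WT_flfl 1 and het 6, and -31.4 to -23.4 CPM with 1 embryo left out. LacZ gave 28.8, and 24.7 to 29.0; Neomycine -12.4, and -19.3 to -12.7; Puromycin -14.4, and -19.9 to -13.6, in the same order. With an embryo left out these p-values were at the smallest their sizes allow (0.0667 or 0.1), which says nothing about stability. Of 1946 values of 117 named genes under the alternatives, 67 moved by more than 1 SE, 94 took the other sign and 0 were called. For most genes under 30 CPM the 95% interval of the change reached past 2-fold.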

Other observations

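A few genes had 0 reads in all 3 WT_flfl embryos and at least 10 CPM in a het embryo. There were 9 such genes among the 15582 mouse genes in the table, and 0 genes with the pattern reversed. The 2 counts are not alike, because the groups differ in their number of embryos. All 9 genes had reads in an M_KO or MZ_KO embryo, and Gm12621 had reads in every het embryo. Each of the 9 reached 10 CPM in a single het embryo. Magea2, Magea3 and Magea6, X-linked members of the melanoma antigen family, stood at 35.3, 32.3 and 12.9 CPM in het 5 and at 2.25, 4.37 and 5.04 CPM in het 8, with at most 0.0695 CPM in het 3 and 6. Their relatives Magea5 and Magea8 stood at 82.2 and 66.9 CPM in het 5 and 41.0 and 63.2 CPM in het 8, and Magea5 at 51.1 CPM in WT_flfl 1, so the family was not limited to het. These are near-identical copies between which reads could be split.

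Het 3 alone held high levels of 3 noncoding transcripts: 1831 CPM of Gm48754, 3419 CPM of Gm47738 and 1453 CPM of Gm47486. The other 6 embryos stood at 3.98 to 10.4, 11.1 to 28.1 and 3.42 to 13.1 CPM for them. Embryonic globins differed from the adult ones, with Hba-x at 387 CPM and Hbb-y at 150 CPM in WT_flfl 9 and at most 8.20 and 9.19 CPM in the other 6 embryos.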
